A study of Drosophila melanogaster with 15 samples.

Results

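Among 15 arrays of whole male flies, the 10 arrays of flies exposed to ethanol fell into 2 sets of 5 pools that no label of the study names. Set A holds replicates 2, 4 and 5 of the 1st exposure together with replicates 4 and 5 of the 2nd. Set B holds replicates 1 and 3 of the 1st exposure together with replicates 1, 2 and 3 of the 2nd. The pools were chosen by their log2 Signal over the probe sets of these same arrays, with the treatment as covariate, so every difference between them is given as a description, with no test, and neither set is a condition of the experiment. The 5 arrays of unexposed flies took no part in drawing the sets.

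Every array read whole Canton-S B males, an isogenic wild-type strain, aged 3 to 5 days, with 30 flies in a pool and 5 pools for each of 3 treatments. Flies of the 1st exposure fell once through an inebriometer, a column of ethanol vapor from which flies drop as they lose posture, and were taken when they came out after 3 to 5 minutes. Flies of the 2nd exposure recovered for 2 h after a first passage and were taken when they came out of a second one after 7 to 10 minutes. Control flies met no ethanol. The measure was the Signal intensity of a probe set, a cluster of oligonucleotide probes that together read a transcript, and 13809 probe sets whose Signal averaged 20 or more across the 15 arrays were read.

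A whole fly is a mixture of tissues. The thorax is filled by indirect flight muscle, whose fibrils hold their own actin, troponin C and thick-filament proteins and whose mitochondria are among the densest of any tissue. The fat body secretes antimicrobial peptides into the blood under the Toll and Imd pathways, the testis makes sperm-specific structural proteins, and the accessory glands make seminal proteins. In RNA of whole flies, fewer cells of a type and less RNA per cell cannot be told apart, and because each array was scaled to a common trimmed mean, a fall of some transcripts is relative to all others on the array.

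The sets stood apart widely but mostly by small amounts. A probe set is called apart here when every set A array lies on one side of every set B array of the same exposure, in both exposures. By that count 1126 of 13809 probe sets (8.15%) lay higher in set A and 1924 (13.9%) lay lower, and among 10778 genes read by their brightest probe set the shares were 8.52% and 15.5%. These shares describe how the sets were drawn and nothing is read from their size. With array medians made equal the split was 1419 higher and 1581 lower, so that 47.3% of the probe sets apart were higher in set A, against 36.9% with the deposited scaling. The set difference, the mean log2 Signal of set A minus that of set B with the exposure as covariate, had a median of -0.03 over all probe sets, with its 5th and 95th percentiles at -0.41 and 0.50.

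Differences of at least 2-fold ran mostly toward set A. They were found in 46 probe sets apart that were higher in set A (0.333%) and in 11 that were lower (0.0797%). All 11 lower ones were dim, with a mean Signal of 20.1 to 38.7, and 28 of the 46 higher ones had a mean Signal under 100. The 18 brighter ones gave 13 named genes, 6 of them muscle genes and 1 an immune gene, and 4 probe sets with no single gene name. Just inside the 2-fold limit lay Gfrl at 1.01, and just outside it CG31036 at -0.98 and NimB1 at 0.97. Just inside the limit on Signal lay CG14137, with a mean of 20, and just outside it CG14273, with 19.99.

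Across the 10260 probe sets whose Signal averaged 100 or more, the set difference measured on 1st exposure arrays and that measured on 2nd exposure arrays correlated at r = 0.63. Over all probe sets kept, r was 0.24. These are correlations across genes, which are not independent replicates, and the sets were drawn so that both exposures would differ. Within an exposure, 2 arrays of the same set differed by a standard deviation of 0.18 to 0.26 in log2 Signal over the brighter probe sets (4 pairs in each exposure), and 2 arrays of different sets by 0.27 to 0.34 (6 pairs in each exposure). Pairs of control arrays ran between these, from 0.19 to 0.31 (10 pairs). The closest pair of exposed arrays was 1st exposure replicates 2 and 4, both in set A, at 0.18, with 69.6% of the brighter probe sets within 10% of each other. Their Signals were equal at 69 probe sets, and they were kept as separate pools.

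Of the 12 named genes with the largest positive differences among those apart by at least 2-fold and averaging 100 Signal or more, flight muscle genes took 4 of the first 6 places, with CG15617 and Mtk between them. Transcripts of fln, Act88F, TpnC4 and Strn-Mlck were 2.57 to 4.59 times as high in set A as in set B, while most other muscle genes overlapped between the sets. fln encodes flightin, a thick-filament protein of indirect flight muscle. Its Signal was 10834, 11171 and 9973 on the set A arrays of the 1st exposure and 17887 and 12262 on those of the 2nd, against 3955 and 1166 on set B arrays of the 1st exposure and 2114, 3478 and 5753 on those of the 2nd. No set B array came near a set A array, and the spread inside set B was wide, with 1st exposure replicate 3 lowest of all 15 arrays. The mean was 12425 ± 3161 in set A and 3293 ± 1763 in set B (SD, n = 5 each), a set difference of 2.20 ± 0.41 (SE).

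Act88F, the actin of the indirect flight muscle, had a Signal of 10110, 10108 and 9392 (1st exposure) and 20241 and 15298 (2nd exposure) in set A, against 6303 and 3163 (1st exposure) and 4646, 5815 and 7577 (2nd exposure) in set B. TpnC4, a flight muscle troponin C, had 9228, 9380, 7804, 11725 and 9866 on the set A arrays in the same order, against 4008, 1430, 2828, 4148 and 6002 on the set B arrays. Strn-Mlck, which encodes titin-like proteins and a myosin light chain kinase, had 2675, 2834, 2187, 3824 and 3149 in set A and 1087, 446, 822, 1028 and 1609 in set B. In all 3 genes the sets were separate over the exposures pooled, and 1st exposure replicate 3 was the lowest array and 2nd exposure replicate 4 the highest. The set differences were 1.36 ± 0.24, 1.63 ± 0.34 and 1.76 ± 0.29 for Act88F, TpnC4 and Strn-Mlck.

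**Figure D1:**
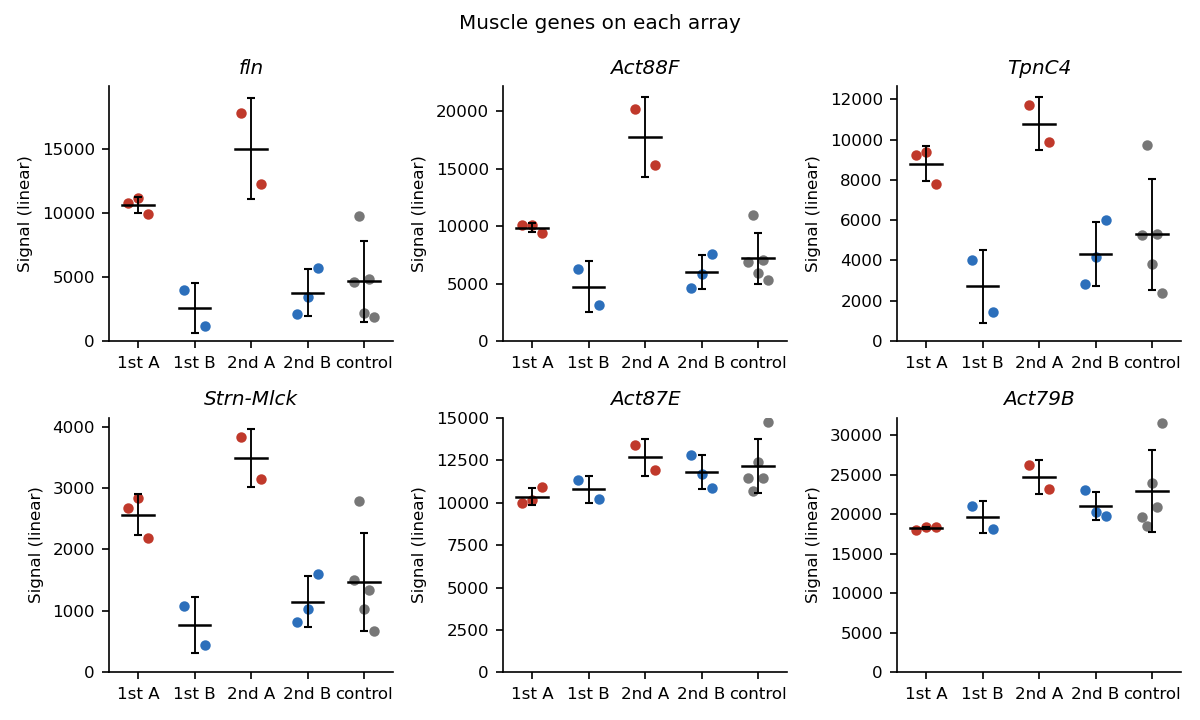
Signal (linear axis) of 6 muscle genes on each array, as points, for 1st exposure set A (3 arrays), 1st exposure set B (2), 2nd exposure set A (2), 2nd exposure set B (3) and control (5), with the mean as a bar and the SD as an error bar. fln, Act88F, TpnC4 and Strn-Mlck separate set A from set B in both exposures and vary widely among control arrays, whereas Act87E and Act79B, actins of other muscles, overlap.

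Other genes of the sarcomere followed. Lmpt, a LIM-domain protein, was read at 285 to 472 Signal in set A and 113 to 210 in set B (set difference 1.32 ± 0.16). Mlp60A, a muscle LIM protein, was read by 3 probe sets that disagreed: the brightest gave 10083 to 11215 in set A and 10273 to 11228 in set B (set difference 0.00 ± 0.03), while the 2 dimmer ones gave 1.34 ± 0.26 and 1.55 ± 0.23. Fhos, a formin of the growing sarcomere, lay outside the muscle list and was looked up after its values were seen, with 1906 to 2293 in set A and 925 to 1613 in set B (set difference 0.85 ± 0.16). Gpdh1, the cytosolic enzyme of the glycerol phosphate shuttle that serves flight muscle, had 12559 to 15285 in set A and 7581 to 10942 in set B (set difference 0.60 ± 0.06).

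The rest of the muscle list did not share this. Of its 24 measured genes, 6 lay apart and higher in set A (fln, Strn-Mlck, TpnC4, Act88F, Gpdh1 and Mlc1), 1 lay apart and lower (Msp300) and 17 overlapped. The shares were 25% higher and 4.17% lower, against 8.52% and 15.5% of all genes. Act87E, an actin of body wall muscle, was read at 10001 to 13438 in set A and 10246 to 12850 in set B, and Act79B, an actin of tubular muscle such as that of the leg, at 18060 to 26255 in set A and 18182 to 23015 in set B. Set differences of 0.02 for Act87E, 0.07 for Act79B, 0.08 for Prm, 0.12 for Tm2 and -0.08 for Mlp84B were close to that of all genes. Msp300, which anchors muscle nuclei, was 1394 to 1814 in set A and 1819 to 2271 in set B (set difference -0.32 ± 0.09). The median over the 24 genes was 0.07, and it was -0.01 with quantile normalization and -0.06 on 1st exposure arrays alone, so the list as a whole had no settled direction.

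Subunits of the mitochondrial respiratory chain lay higher in set A nearly throughout. Of 40 measured genes of oxidative phosphorylation, 34 lay apart and higher in set A, 2 lay apart and lower and 4 overlapped. The shares were 85% higher and 5% lower, against 8.52% and 15.5% of all genes. The median set difference was 0.40, against -0.03 over all genes. The counts were again 34 and 2 with quantile normalization and with equal array medians. COX5B, a subunit of cytochrome c oxidase, had a Signal of 17002, 17755 and 17214 (1st exposure) and 19298 and 17243 (2nd exposure) in set A, against 10350 and 9296 (1st exposure) and 9757, 10943 and 14680 (2nd exposure) in set B. Every set A array was above every set B array, and the nearest set B array was 2nd exposure replicate 3, which was also the highest in set B for fln. The set difference of COX5B was 0.74 ± 0.12, and those of SdhB (succinate dehydrogenase), ND-20 (complex I) and ATPsynbeta (ATP synthase) were 0.65 ± 0.10, 0.60 ± 0.08 and 0.48 ± 0.07.

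The 2 subunit genes that ran the other way were COX6AL and COX5BL, relatives of the cytochrome c oxidase genes COX6A and COX5B. COX6AL had 1070 to 1260 Signal in set A and 1385 to 1566 in set B (set difference -0.34 ± 0.03), and COX5BL had 2044 to 2466 in set A and 2631 to 2994 in set B (-0.31 ± 0.04). COX6CL, another gene of this kind, overlapped, with 1780 to 2324 in set A and 2111 to 2444 in set B. The other exceptions among the 40 were COX7A, UQCR-Q and blw, the alpha subunit of ATP synthase, with set differences of 0.05, 0.07 and 0.19.

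Transcripts of the testis were lower in set A by small and even amounts. Of 39 measured testis and sperm genes, none lay apart and higher in set A, 22 lay apart and lower and 17 overlapped. The 22 were 56.4% of the list, against 15.5% of all genes. The median set difference was -0.23, with 36 of the 39 below 0. With equal array medians 22 again lay lower and the median was -0.19. dj, which encodes a protein of the sperm tail, had a Signal of 311, 493 and 427 (1st exposure) and 371 and 325 (2nd exposure) in set A, against 540 and 575 (1st exposure) and 491, 550 and 503 (2nd exposure) in set B. The sets were separate within each exposure, but 1st exposure replicate 4 of set A reached 2nd exposure replicate 1 of set B. The protamine genes ProtA and ProtB, whose products pack sperm DNA, differed by -0.33 ± 0.04 and -0.34 ± 0.04, bol, which encodes a regulator of meiosis, by -0.35 ± 0.04, and betaTub85D, the testis beta-tubulin, by -0.21 ± 0.03.

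Seminal protein genes of the accessory gland ran the same way with smaller differences. Of 24 measured genes 9 lay apart and lower in set A (37.5%, against 15.5% of all genes) and none higher, with a median of -0.16. Acp32CD had 2979 to 3807 Signal in set A and 3940 to 4492 in set B (set difference -0.33 ± 0.04), and lectin-46Ca, which takes part in the storage of sex peptide in the female, 1241 to 1614 in set A and 1648 to 1934 in set B (-0.32 ± 0.06). The brightest of the list, Acp98AB, Mst57Da and Acp53C14a, overlapped, with set differences of -0.12 to -0.03. SP (sex peptide) had 10628 to 11979 in set A and 11621 to 13618 in set B (set difference -0.16). Acp26Aa (ovulin) had 9317 to 11619 in set A and 10022 to 12060 in set B (-0.06). Both overlapped. Of 8 genes listed for the ejaculatory duct and bulb, 2 lay apart and lower in set A (25%, against 15.5% of all genes). This list wrongly includes Acp65Aa, an adult cuticle protein, with a set difference of 1.09 and overlap, so its share and medians are not those of duct and bulb genes alone.

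**Figure D2:**
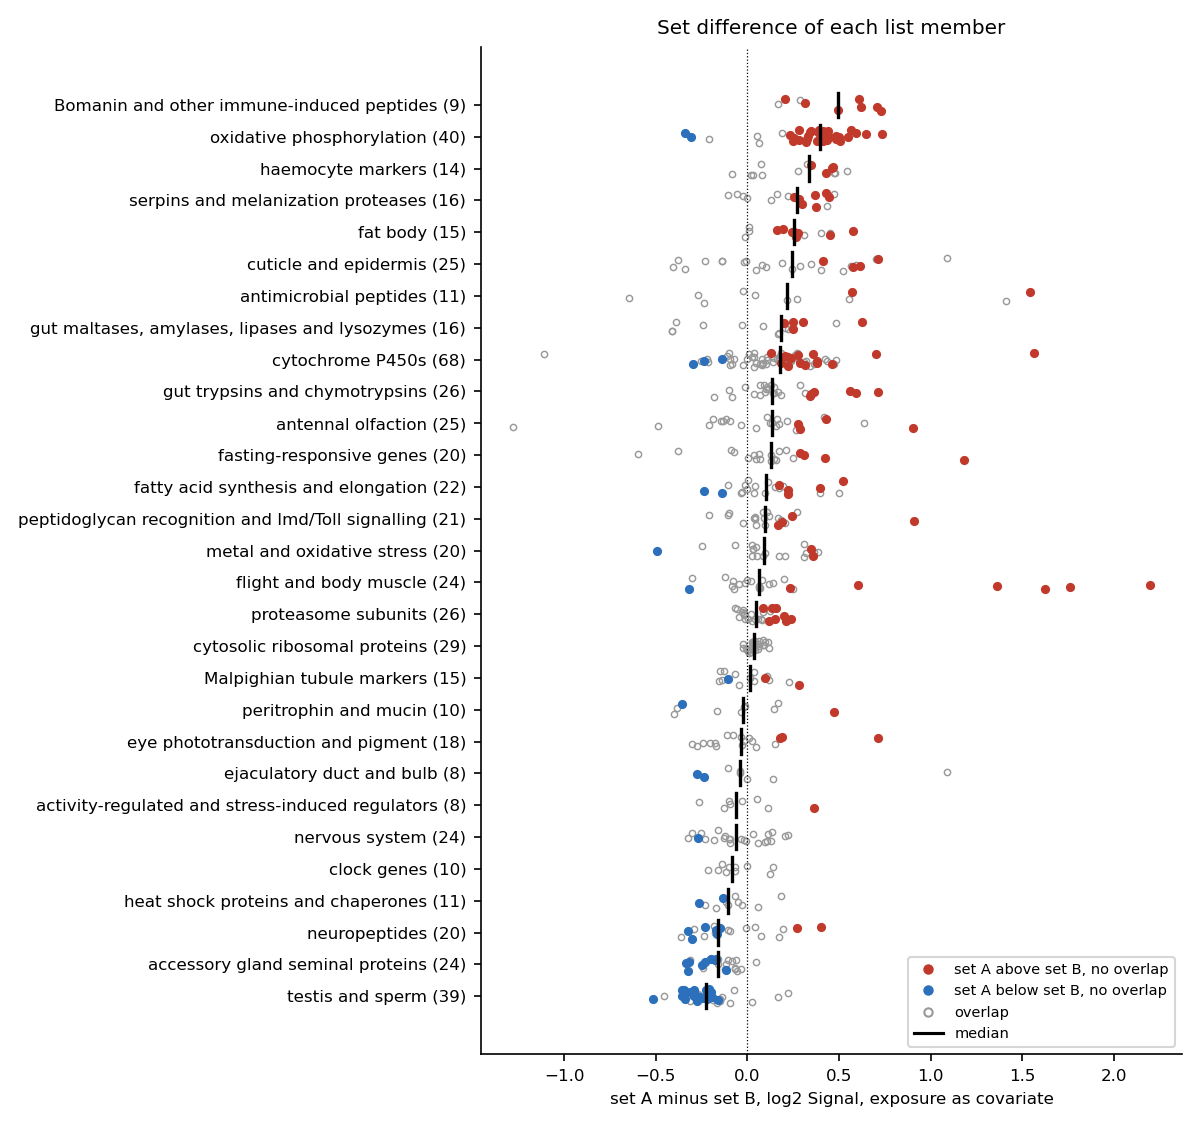
Set difference (set A minus set B in log2 Signal, horizontal axis) of each measured gene in 29 lists of at least 8 measured genes (ovary, yolk and eggshell left out), with the number in brackets and the list median as a bar. Filled points lay apart in both exposures, higher or lower in set A, and open points overlapped. The respiratory chain, Bomanin and fat body lists lie to the right of 0 and the testis and accessory gland lists to the left, while 4 muscle genes stand beyond 1, apart from the rest of their list.

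Several immune transcripts were higher in set A, and for Mtk, DptB and Drs the difference was larger on 1st exposure arrays. Mtk encodes the antimicrobial peptide metchnikowin. Its Signal was 2600, 2815 and 4712 on 1st exposure arrays of set A, against 758 and 316 on those of set B. On 2nd exposure arrays it was 1051 and 1240 in set A, against 827, 853 and 1021 in set B. The difference was 2.73 on the log2 scale in the 1st exposure and 0.35 in the 2nd, and the sets came close to touching in the 2nd. Whether the exposures differ in this was not tested.

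DptB, a diptericin gene of the Imd pathway, had 692, 938 and 1329 Signal in set A and 266 and 122 in set B after the 1st exposure, and 435 and 519 in set A and 256, 489 and 357 in set B after the 2nd. Drs, the antifungal drosomycin of the Toll pathway, had 3684, 3708 and 4852 in set A and 2645 and 1920 in set B after the 1st exposure, and 2701 and 2740 in set A and 3019, 2285 and 1685 in set B after the 2nd. PGRP-SB1, a secreted peptidoglycan recognition protein, had 752, 764 and 1034 in set A and 280 and 240 in set B after the 1st exposure, and 374 and 389 in set A and 373, 320 and 356 in set B after the 2nd. For DptB and Drs the sets overlapped after the 2nd exposure, and for PGRP-SB1 they were separated by under 1 Signal unit. Def ran neither way, with 237 to 323 in set A and 175 to 699 in set B.

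The Bomanins, short peptides induced by Toll, kept their direction in both exposures. Of 9 measured genes of this list 7 lay apart and higher in set A (77.8%, against 8.52% of all genes), with a median of 0.50. BomS2 had 6025, 5886 and 5888 Signal in set A and 2762 and 2934 in set B after the 1st exposure, and 10609 and 9432 in set A and 7596, 7162 and 8080 in set B after the 2nd. Both sets were higher after the 2nd exposure than after the 1st, and set A was above set B in each, by 1.06 and 0.40 on the log2 scale. BomS5 differed by 1.02 in the 1st exposure and by 0.39 in the 2nd.

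Counts in the other immune lists were smaller. Of 11 antimicrobial peptide genes 2 lay apart and higher in set A (18.2%, against 8.52% of all genes), Mtk and CecB. CecB, a dim cecropin gene, had 113 to 171 Signal in set A and 63 to 147 in set B, with differences of 0.59 in the 1st exposure and 0.55 in the 2nd. Drsl1, Drsl2 and Drsl3, drosomycin-like genes with a mean Signal of 21.3 to 56.4, overlapped, with set differences of -0.65 to -0.03. Of 21 genes of peptidoglycan recognition and Toll and Imd signalling 4 lay apart and higher (19%): PGRP-SB1, GNBP3, cact and Rel. The pathway components Tl, dl, key and Myd88 had set differences of -0.02 to 0.10. Serpins and melanization proteases gave 7 of 16 (43.8%), with nec, a serpin that restrains Toll, at 0.30 ± 0.03. Haemocyte genes gave 4 of 14 (28.6%), with a median of 0.34 and 13 of the 14 above 0. The 4 were NimB5 at 0.47, PPO2 at 0.43 and the collagen IV genes vkg and Col4a1, which the fat body also expresses, at 0.46 and 0.35. Among those that overlapped, Hml and NimC1 lay at 0.33 and 0.28, and crq, Pxn and eater at 0.02 to 0.08. None of these 4 lists held a gene apart and lower in set A, against 15.5% of all genes.

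**Figure D3:**
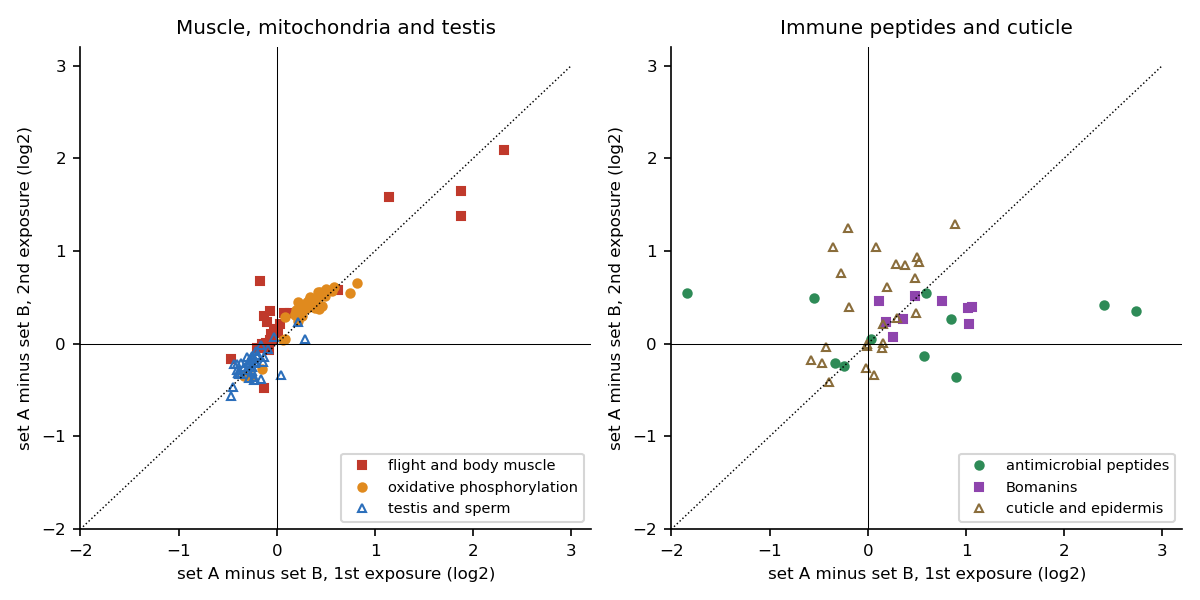
Set difference in log2 Signal on 1st exposure arrays (horizontal) against that on 2nd exposure arrays (vertical) for the measured genes of 6 lists, with a dotted line where both are equal. Most respiratory chain and testis genes lie near the line. Of the muscle genes, fln, Act88F, TpnC4 and Strn-Mlck lie high in both exposures, while up and Prm lie off the line, at -0.17 and -0.13 in the 1st exposure and 0.67 and 0.29 in the 2nd. The antimicrobial peptide genes Mtk and DptB lie far to the right at 2.73 and 2.41 in the 1st exposure with 0.35 and 0.42 in the 2nd.

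On control arrays, which the rule left out, immune and muscle transcripts could run apart. Control replicate 5 had the highest Mtk of all 15 arrays, 5100, with the lowest control value of fln, 1858. Control replicate 2 had the highest control value of fln, 9797, and an Mtk of 2583, below control replicate 5 alone among the controls. The mean log2 level of fln, Act88F, TpnC4 and Strn-Mlck relative to the 15-array mean was 0.58 to 1.42 on set A arrays, -1.77 to 0.10 on set B arrays and -1.09 to 0.80 on control arrays. That of Mtk, DptB, Drs and PGRP-SB1 was 0.59 to 1.25 on 1st exposure arrays of set A but -0.27 and -0.13 on its 2nd exposure arrays, -1.45 to -0.42 in set B and -0.21 to 1.34 on control arrays.

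**Figure D4:**
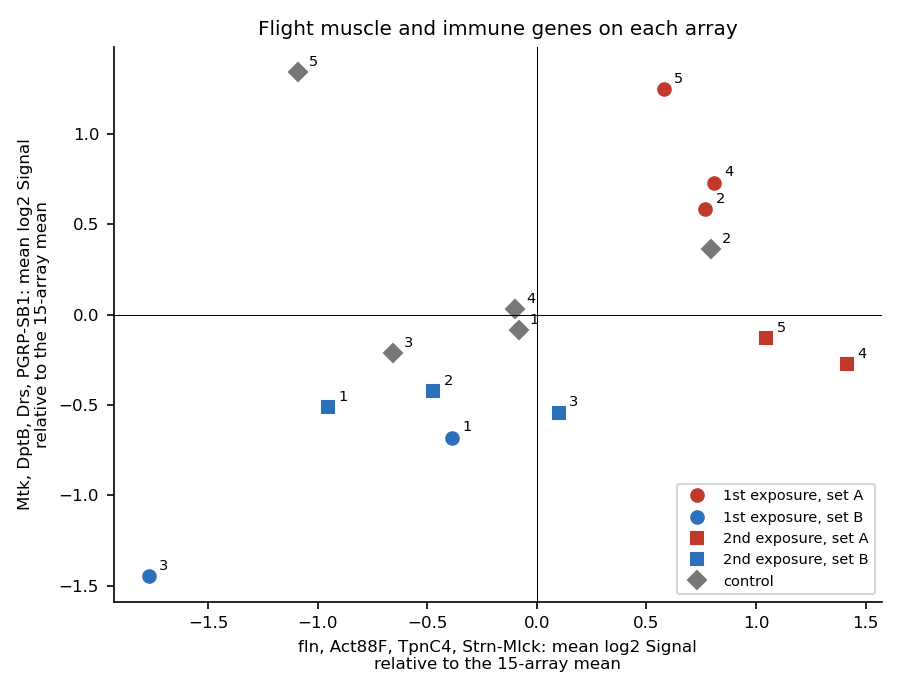
Mean log2 Signal of 4 immune genes (vertical) against that of 4 flight muscle genes (horizontal) on each of the 15 arrays, both relative to the mean of all arrays, with replicate numbers beside the points. Set A lies to the right, its 1st exposure arrays above 0 and its 2nd exposure arrays just below, set B lies below 0, and control arrays 5 and 2 lie at upper left and upper right.

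Some genes of the cuticle were higher in set A, with large spread. Of 25 measured genes 4 lay apart and higher (16%, against 8.52% of all genes), 21 overlapped and none lay lower, with a median of 0.24 that was 0.087 on 1st exposure arrays alone. Over the list 17 genes had a set difference above 0 and 8 below. TwdlE, Cpr12A and Cpr56F lay lowest, at -0.40 to -0.34, all with overlap. Cpr100A, a chitin-binding cuticle protein, had 854, 785 and 725 Signal in set A and 663 and 467 in set B after the 1st exposure, and 1949 and 1381 in set A and 1050, 1032 and 590 in set B after the 2nd. Acp65Aa, an adult cuticle protein, overlapped, and its mean rested on 2nd exposure replicate 4, with 2400, against 327 to 593 on the other 4 set A arrays and 111 to 641 in set B. Control arrays 3 and 5 were as high, at 1961 and 2342. Cpr49Ab and obst-A, chitin-binding genes outside the list that were looked up after their values were seen, had set differences of 0.94 ± 0.20 and 0.84 ± 0.19.

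Some genes for gut proteases and maltases were higher in set A. All genes gave 8.52% apart and higher and 15.5% lower. Of 26 gut trypsin and chymotrypsin genes 6 lay apart and higher (23.1%), led by Jon25Bii with 4942 to 5786 Signal in set A and 2653 to 4087 in set B (set difference 0.71 ± 0.15) and epsilonTry with 11619 to 18509 in set A and 6984 to 11885 in set B (0.59 ± 0.14). The brightest of the list, alphaTry, Jon65Aiv and betaTry, had set differences of 0.10 to 0.13. Of 16 genes for maltases, amylases, lipases and lysozymes 5 lay apart and higher (31.25%), all of them maltases, led by Mal-A5 with 1754 to 2069 in set A and 1145 to 1360 in set B (0.62 ± 0.06). In this list 11 genes had a set difference above 0 and 5 below. LysX and Mur29B lay lowest, at -0.41 each with overlap. Peritrophins and mucins gave 1 higher and 1 lower of 10 (10% each), and Malpighian tubule genes 2 higher and 1 lower of 15 (13.3% and 6.67%). With so few genes, nothing is read from these counts. The medians of these last 2 lists, -0.03 and 0.01, changed sign with scaling.

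Fat body genes gave 8 of 15 apart and higher in set A (53.3%) and none lower, with a median of 0.26. All genes gave 8.52% higher and 15.5% lower. Lsd-1, a perilipin on lipid droplets, had 2387 to 3932 Signal in set A and 1524 to 3053 in set B, apart within each exposure (set difference 0.58 ± 0.08), and fon, a clotting protein, had 3511 to 4494 in set A and 2709 to 3086 in set B (0.45 ± 0.06). Cyp4g1 and Desat1, of the hydrocarbon-making oenocytes and fat body, were at 0.01 and -0.02. Genes of fatty acid synthesis and elongation gave 5 higher and 2 lower of 22 (22.7% and 9.09%), the lower ones being FASN3 and FASN2. Of 20 fasting-responsive genes 4 lay apart and higher (20%). Pepck2, a phosphoenolpyruvate carboxykinase, stood out among them, with 170 to 206 in set A and 65.4 to 131 in set B (set difference 1.18 ± 0.22). Pepck1 was at 0.21 with overlap. Cytochrome P450 genes gave 15 higher and 3 lower of 68 (22.1% and 4.41%), with a median of 0.18.

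The 4 further named genes among the 12 with the largest positive differences were CG15617 at 1.97 ± 0.45, CG12105 at 1.33 ± 0.13, CG4830 at 1.13 ± 0.28 and Gat, a GABA transporter of glia, at 1.07 ± 0.12. CG12105 had 287 to 621 Signal in set A and 125 to 230 in set B, with the smallest error but one of the 12. CG15617 was read at 332 to 636 in set A and 41.5 to 341 in set B, so that it overlapped between exposures but not within them. The probe set of Gat carries a suffix by which the maker marks probes shared by several transcripts. The 2-fold rule gave no gene above 100 Signal that was lower in set A. Among named genes above 100 Signal, the lower differences of CG34435 and CG31815 were the largest, and they were chosen after their values were seen: CG34435 at -0.83 ± 0.20 and CG31815 at -0.78 ± 0.21, with GluClalpha, a glutamate-gated chloride channel, at -0.65 ± 0.15.

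Lists named for tissues of the head did not share a direction. In RNA of whole flies their members may also be read from other tissues, so a list name does not place a difference in the head. All genes gave 8.52% apart and higher in set A and 15.5% lower. None of 24 nervous system genes lay apart and higher in set A and 1 lay lower (4.17%), cac, a calcium channel at -0.27. Neuropeptide genes gave 2 higher, Nplp3 and Nplp2, and 6 lower of 20 (10% and 30%), with a median of -0.16. With equal array medians the lower ones were 2. Crz (corazonin) had 79.6 to 123 Signal in set A and 98.1 to 148 in set B, and NPF 204 to 265 in set A and 218 to 283 in set B, both apart only within each exposure. Of 25 genes in the antennal list 4 lay apart and higher in set A (16%), Obp99b, Obp99c, Obp57b and Obp57c. The odorant-binding protein gene Obp99b led with 778 to 996 in set A and 438 to 562 in set B (set difference 0.90 ± 0.10). Over the list 16 genes had a set difference above 0 and 9 below. Among the 9, lush, Orco, a10, Obp83b, Os-C and a5 lay at -1.28 to -0.04, all with overlap. Of 18 genes in the eye list 3 lay apart and higher (16.7%), among them ninaD, a receptor for carotenoid uptake, at 0.71.

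Several lists had medians close to that of all genes. None of 29 cytosolic ribosomal protein genes and none of 10 clock genes lay apart, with medians of 0.04 and -0.09. RpL32 had 16159 to 17667 Signal in set A and 14897 to 17482 in set B. The median of the ribosomal list was -0.03 with quantile normalization, under which 3 genes lay lower, so it has no settled sign. Of 26 proteasome genes 8 lay higher in set A (30.8%, against 8.52% of all genes), all by 0.09 to 0.24. Turandot genes and targets of JAK/STAT lay farther off, with a median of 0.17 and 4 of 5 above 0. All 4 of these overlapped, and the other, CG12780, lay apart and lower at -0.37. Metal and oxidative stress genes gave 2 higher and 1 lower of 20 (10% and 5%, against 8.52% and 15.5% of all genes). Heat shock genes gave 2 lower of 11 (18.2%, against 15.5% of all genes). The regulators induced by activity or stress gave 1 higher of 8 (12.5%, against 8.52% of all genes), Gadd45, with Hr38 and kay at -0.13 and -0.10.

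Yolk and eggshell transcripts, which females make, marked 1 array. Yp1, a yolk protein of the female fat body and ovarian follicle, had a Signal of 2521 on 2nd exposure replicate 5 of set A, 72.9 on replicate 4 of set A and 4.1 to 38 on the other exposed arrays, with 1.1 to 16.3 on control arrays. Vm34Ca, a vitelline membrane protein of the follicle, had 997 on 2nd exposure replicate 5, 72.9 on replicate 4 and 4.5 to 17.9 on the other exposed arrays. Yp2 and Yp3 were 1670 and 1661 on that array. In the list of ovary, yolk and eggshell genes 10 of 20 passed the limit on Signal, and Yp1, Vm34Ca and Vm26Aa passed it through this array alone. Without this array the list medians were 0.41 for the respiratory chain, -0.25 for the testis and 0.54 for the Bomanins. The male genes Mst87F (8263 to 13281) and Acp26Aa (8996 to 13271) were bright on all 15 arrays.

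Measures of RNA and labelling moved with the sets. The ratio of the 5' to the 3' control probe set of eIF-4a was 0.331 to 0.339 in set A and 0.257 to 0.266 in set B after the 1st exposure, and 0.360 to 0.372 in set A and 0.282 to 0.302 in set B after the 2nd. The actin ratio was 0.551 to 0.589 in set A and 0.473 to 0.483 in set B after the 1st exposure, and 0.625 to 0.738 in set A and 0.549 to 0.584 in set B after the 2nd. The ratio for Act5C also lay apart in both exposures and that for GAPDH overlapped. A higher ratio means that more of the labelled RNA reached the 5' end of the transcript. Set A was above set B for 3 of the 4 transcripts, and the part of this in the differences above was not tested.

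**Figure D5:**
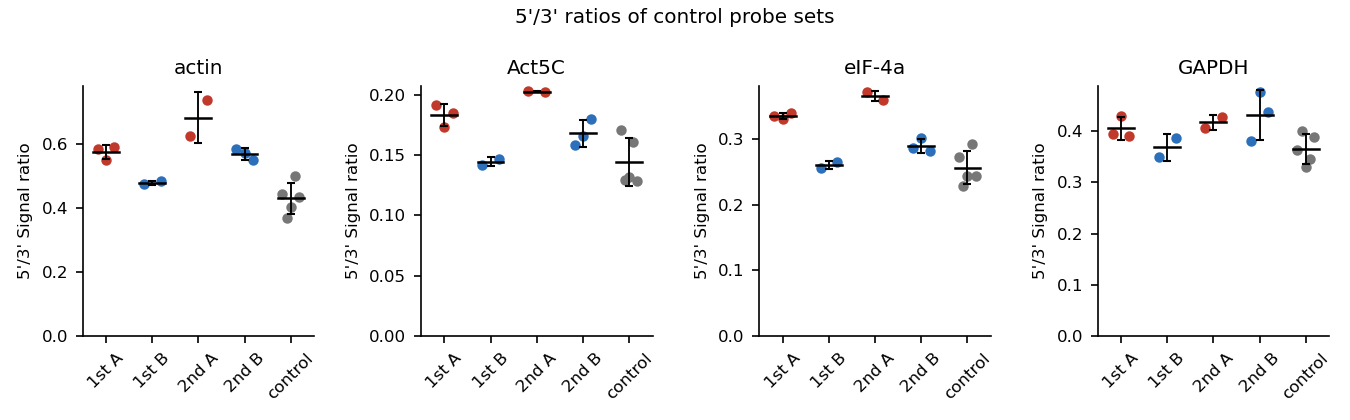
Ratio of 5' to 3' Signal (vertical, linear) of 4 control transcripts on each array, as points, with the mean as a bar and the SD as an error bar, for 1st exposure set A and set B, 2nd exposure set A and set B, and control. Actin, Act5C and eIF-4a separate set A from set B within each exposure, GAPDH does not, and most control arrays lie at or under set B.

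Other array measures did not follow the sets in the same direction in both exposures. The median Signal was 130 to 142 in set A and 133 to 142 in set B, and probe sets with a Signal under 20 made up 22.3% to 27.2% in set A and 23.9% to 26.5% in set B. The dap control RNA added before labelling was read at 4366 and 4426 on 1st exposure replicates 2 and 4 and at 2854 on replicate 5 of set A, against 2687 and 2800 on 1st exposure arrays of set B. After the 2nd exposure the sets overlapped for dap, with 1983 and 2212 in set A and 2057 to 3121 in set B. The control RNAs thr and phe separated the sets in each exposure, but in opposite directions. After the 1st exposure thr was 976 to 1653 in set A and 789 to 792 in set B. After the 2nd it was 596 to 686 in set A and 777 to 964 in set B. For phe the 1st exposure gave 491 to 692 in set A and 370 to 372 in set B. The 2nd gave 308 to 330 in set A and 347 to 454 in set B. The cause was not tested. The replicate numbers also ran with the sets: 4 and 5 are in set A and 1 and 3 in set B in both exposures, and number 2 is in set A after the 1st and in set B after the 2nd. In the methods, the pools of a replicate came from the same starting groups of flies in all 3 treatments, but the sources do not say that array numbers follow these replicates, and the part of a shared starting group in the sets was not tested.

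Control arrays carried the same numbers without the same difference. Control replicates 4 and 5 minus replicates 1 and 3 correlated with the set difference at r = 0.05 across the 10260 brighter probe sets. Of single control arrays, replicate 2 lay farthest toward set A: its deviation from the control mean correlated with the set difference at r = 0.31, and 16 of the 18 brighter probe sets of at least 2-fold were above the control mean on it. On replicate 3 this held for 1 of 18 and on replicate 5 for 4 of 18. For 15 of these 18 probe sets the range of the 5 control arrays reached into that of set A, and for 17 it reached into that of set B. TpnC4 was read at 2375 to 9727 on control arrays, against 7804 to 11725 in set A and 1430 to 6002 in set B.

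The comparison that the study was built for, between treatments, was tested with limma over all 15 arrays and 13809 probe sets. It addresses the response to a first and a second exposure. Set A makes up 3 of the 5 arrays of the 1st exposure and 2 of the 5 of the 2nd, so the sets lie across the treatments almost evenly, and the difference between them enters the spread that the test uses. At an adjusted p under 0.05, 50 probe sets differed between the 1st exposure and control (0.362%), 501 between the 2nd exposure and control (3.63%) and 243 between the 2nd and the 1st exposure (1.76%). Of the 57 probe sets that lay apart by at least 2-fold, 0 were called by limma in any of these, and 4, 3 and 4 had an unadjusted p under 0.05 (7.02%, 5.26% and 7.02%, against 10.5%, 16.4% and 15.6% of all probe sets). With the replicate number as a block the calls were 32, 420 and 164.

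Among all probe sets apart and higher in set A, 60 of 1126 (5.33%) were called between the 2nd exposure and control, against 3.63% of all probe sets. Among those lower in set A, 7 of 1924 (0.364%) were called. For the 1st exposure against control the counts were 1 of 1126 and 0 of 1924, and for the 2nd against the 1st exposure 27 and 1. No test of these shares was made.

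The leading genes of the sets, at least 2-fold apart, were not called between treatments. fln averaged 8299 ± 6626 after the 2nd exposure and 4674 ± 3171 in controls (SD, n = 5 each), a log2 difference of 0.67 with limma's adjusted p = 0.71. Mtk averaged 998 ± 168 after the 2nd exposure and 2568 ± 1473 in controls, with a log2 difference of -1.23 and limma's adjusted p = 0.33. COX5B and ProtA, whose set differences were under 2-fold, had adjusted p-values of 0.98 and 0.56 between the 2nd and the 1st exposure by limma. No gene of the muscle, respiratory chain, testis, accessory gland, haemocyte or neuropeptide lists was called by limma in any of the 3 contrasts. Over all probe sets 0.362%, 3.63% and 1.76% were called. The difference between the sets widens the spread of such genes within a treatment, so a missing call does not show that they did not respond.

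Genes that did respond to treatment could be level between the sets. Try29F, a trypsin, had 567 and 472 Signal in set A and 485, 623 and 720 in set B after the 2nd exposure, 86.8 to 151 after the 1st and 86.2 to 139 in controls. The sets overlapped, and limma gave a log2 difference of 2.40 between the 2nd exposure and control at an adjusted p of 6.38e-06. Lsd-1 was higher both in set A and after the 2nd exposure, with 3119 ± 734 after the 2nd exposure and 1725 ± 227 in controls (limma's log2 difference 0.83, adjusted p = 0.019), and it kept no call when 2nd exposure replicate 4 or 5 was left out (adjusted p = 0.052 and 0.0504).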

How the data were processed

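The deposited values are the Signal intensity of each of 18952 probe sets on 15 oligonucleotide arrays, which the authors computed with MAS5 from perfect-match and mismatch probes and scaled array by array. The scale is linear, and no further normalization was applied. The 183 control probe sets were used for array measures alone, and 13809 of the other 18769, whose Signal averaged 20 or more, were analysed as log2(Signal). The methods name a median as the target of scaling, but array medians ran from 129 to 140 and the mean after trimming 2% at each end was 500.0 on every array, so changes are relative to all other transcripts. Precision is limited by the 5 pools per treatment.

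The 10 exposed arrays were placed in sets by a rule made from the measured values, and the gene lists and members were chosen with earlier results of these data known. The set difference is the coefficient of the set in limma 3.58.1 (R 4.3.3) with the treatment as covariate. Treatments were compared over 15 arrays with 1 mean each and moderated variances, with Benjamini-Hochberg adjusted p-values over all probe sets kept and a threshold of 0.05. Replicates are separate pools of flies. The methods drew the pools of a replicate from the same starting groups, without saying that array numbers follow them, and fitted no block. Deviations of like-numbered arrays correlated at -0.20 to 0.26 between control and exposed arrays (10 pairs). Between the exposures r was 0.23 to 0.40 in the 4 pairs of the same set and -0.30 in the other, against 0.10 to 0.46 in 8 pairs of the same set with different numbers. Not every pair passed 0.1, so the main fit has no block. Gene names came from the platform annotation, 13646 probe sets with 1 symbol and 402 with several, checked against RefSeq gene IDs, and a gene was read by its brightest probe set. Genes named are the 12 with the largest positive set difference among probe sets apart by at least 2-fold with a Signal averaging 100 or more over the exposed arrays (none lay lower), members of each list with the largest differences, and tissue markers. Alternatives were quantile normalization, equal array medians, a pseudocount of 50, the Signal limit dropped or raised to 70, averaging over the probe sets of a gene, each exposure alone, the set as covariate, the replicate number as a block and each array left out. Averaging 1st exposure replicates 2 and 4 was added after seeing the data. The steps were tested on simulated data.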

Additional observations from a re-analysis of the deposited data

Results flagged for a closer look

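The 74 probe sets of the genes in the text were screened in 3 groups of 5 arrays for 1 array far from its 4 companions, where its gap to the nearest exceeded 0.71 of the whole range. For independent genes chance would flag about 5% of such groups, or 11.1 of 222, and 19 were found, 5 of them on 2nd exposure replicate 5. These genes were chosen with their values known and vary together, so nothing is read from the 19 against 11.1. On 2nd exposure replicate 5 the yolk and eggshell genes had the highest value by far: Yp1 at 2521, Yp2 at 1670, Yp3 at 1661, Vm34Ca at 997 and Vm26Aa at 485, against at most 72.9, 94.8, 147, 72.9 and 33.5 on the other 2nd exposure arrays. Replicate 4 of the 2nd exposure stood alone in the cuticle genes Acp65Aa at 2400 and Cpr49Ab at 2330, against at most 641 and 1252 on its companions.

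Control replicate 5 was far above the other controls in DptB at 1677, Drs at 5892, BomS5 at 2892 and Mlc2 at 18814, against at most 614, 3120, 1599 and 13783. Control replicate 2 was highest in a dim Mlp60A probe set at 356, and control replicate 1 lowest in Skadu at 600.3. On 1st exposure replicate 1, Act79B at 21095, Prm at 9066 and Def at 699 were high. On 1st exposure replicate 3, Tm2 at 6368, Acp65Aa at 111 and epsilonTry at 6984 were low, the last against 11096 to 12172 on its companions.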

How the results depend on the processing

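The counts of probe sets apart stayed within 1.5 times under each scaling, filter and pseudocount, but those of at least 2-fold did not. The 46 higher and 11 lower became 13 and 0 on log2(Signal + 50), 109 and 40 with no filter on Signal, and 21 and 0 with a limit of 70, so dim probe sets make up most of them, and the 11 became 23 with 1st exposure replicates 2 and 4 averaged. Leaving out single exposed arrays, which by itself makes it easier to lie apart, gave 50 to 79 and 13 to 29, with the 79 without 1st exposure replicate 1 and the 29 without 2nd exposure replicate 5. No named gene that lay apart changed the sign of its set difference.

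List medians moved by more than the spread of the list level in these cases. On 1st exposure arrays alone they were 0.57 for antimicrobial peptides, 0.30 for serpins, -0.13 for the ejaculatory duct, -0.0063 for fatty acid synthesis (turned in sign), -0.064 for muscle (turned), 0.087 for cuticle and -0.037 for ribosomal proteins (turned). On 2nd exposure arrays alone they were 0.39 for Bomanins, 0.19 for serpins, -0.019 for Turandot genes (turned), 0.21 for haemocytes, -0.084 for the accessory gland, 0.065 for the ejaculatory duct (turned), 0.17 for fatty acid synthesis, 0.052 for fasting-responsive genes, 0.18 for muscle, 0.0071 for the nervous system (turned), 0.13 for P450 genes and 0.12 for ribosomal proteins. Quantile normalization gave 0.31 for serpins, 0.058 for fatty acid synthesis and -0.011 for muscle (turned). Equal array medians gave 0.30 for serpins, -0.19 for testis, 0.16 for fasting-responsive genes and 0.083 for proteasome genes. The log2(Signal + 50) scale gave 0.26 for haemocytes, 0.13 for cuticle and 0.14 for P450 genes. With the limit on mean Signal raised to 70, and so fewer genes, antimicrobial peptides were at 0.55 and yolk genes at 2.65, against 0.22 and 0.82. Without 2nd exposure replicate 5 of set A, Yp1, Yp2 and Vm34Ca averaged 15.65, 26.4 and 18.8. They passed the limit of 70 through that array alone, so nothing is read from the yolk value. Averaging 1st exposure replicates 2 and 4 gave 0.091 for fasting-responsive genes. Without single arrays the medians ran from 0.057 to 0.20 for Turandot genes, -0.17 to -0.11 for the accessory gland, 0.13 to 0.18 for P450 genes, 0.077 to 0.12 for fasting-responsive genes, 0.063 to 0.13 for fatty acid synthesis and 0.26 to 0.36 for haemocytes. The medians of the ejaculatory duct list include the cuticle gene Acp65Aa. The causes were not tested.

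Treatment calls depended on single pools. With the replicate number as a block limma called 32 probe sets between the 1st exposure and control, against 50 without it, 420 against 501 between the 2nd exposure and control and 164 against 243 between the exposures, and of the genes read singly tim alone changed its call. With no filter on Signal the 50 and 243 became 27 and 145, and with 1st exposure replicates 2 and 4 averaged 22 and 119. Leaving out single arrays gave 16 to 49, 347 to 495 and 119 to 273. Adding the set as a covariate gave 761 calls between the exposures, against 243, but the sets were drawn from these values, so that p-values of this fit are too small. Among its added calls were Lsd-1, BomS2, nec, obst-A, Gat, CG12105 and ProtB. BomS2 was also called between the 2nd exposure and control without control replicate 5 (adjusted p = 0.042 by limma). tim, a clock gene called between the exposures (adjusted p = 0.024 by limma), was not called with the block (0.059), with 1st exposure replicates 2 and 4 averaged (0.052), or without 1st exposure replicate 1, 2, 4 or 5 or 2nd exposure replicate 1, 2 or 4 (0.051 to 0.058). Values near the limit of 20 are weak signals, and no detection calls were used.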
